A study of Homo sapiens with 26 samples.

Results

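The secretory machinery of the endoplasmic reticulum (ER) was described through 47 genes in 8 roles, taken from entry of a new protein into the ER to its export. Members were found by gene symbol, and each was represented by the probe-set of the highest mean over the 26 cell lines among probe-sets that the array's annotation assigns to that gene alone. This gave 44 members out of 19775 genes with such a probe-set. SEC61G and KDELR2 had none, and PDIA5 had only a probe-set that also lists a microRNA. Baseline expression was measured in untreated human cell lines with 1 Affymetrix HG-U133 Plus 2.0 array per line, 12 treated as multiple myeloma (MM), which derive from malignant plasma cells, and 14 treated as diffuse large B-cell lymphoma (DLBCL), which derive from mature B cells. The MM group held 11 MM lines and the plasmacytoma line AMO-1, and the DLBCL group held 13 DLBCL lines and MC-116, labelled an undifferentiated lymphoma. The medium held serum, 10% or 20% for the MM lines and 10%, 15% or 20% for the DLBCL lines, which was fetal bovine serum except for the DLBCL line OCI-Ly3, grown in 20% human serum with 2-mercaptoethanol. A cell line is the replicate and stands for 1 patient's tumour after adaptation to culture. KMS-12-BM and KMS-12-PE are sister lines from the same patient. The same lines were exposed to mafosfamide as a surrogate of cyclophosphamide (C), to doxorubicin (H) and to vincristine (O), and their response was summarised as AUC0, the area below each dose response curve as far as it lies above 0. A high AUC0 stands for a resistant line.

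Plasma cells release antibody at a very high rate and hold an expanded rough ER for it, while mature B cells mostly keep their immunoglobulin in the membrane. A nascent secretory protein carries a signal peptide that is bound by the signal recognition particle (SRP), which docks on its receptor and hands the ribosome to the SEC61 channel. Inside the ER the signal peptide is cut off by signal peptidase, sugar chains are attached by oligosaccharyltransferase, and chaperones and disulfide isomerases fold the protein. KDEL receptors bring escaped chaperones back from the Golgi, and the COPII coat buds the vesicles that carry finished proteins forward. When unfolded proteins accumulate, the transcription factors ATF6 and XBP1 raise many of these genes through the ER stress response elements of their promoters.

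The promoters are shown because several members that differed between the diseases hold these elements. RefSeq promoters (GRCh38.p14, 250 bases before to 50 after a start site, several for some genes) were given for 41 of the 47 members. On both strands, 3 elements were searched: the ER stress response element (ERSE, letters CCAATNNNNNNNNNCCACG), ERSE-II (letters ATTGGNCCACG) and the XBP1 type element TGACGTGG. ERSE was found in 27 of 35116 promoters (0.0769%), ERSE-II in 19 (0.0541%) and TGACGTGG in 256 (0.729%). By gene, ERSE was found for 5 of the 41 members (12.2%), against 0.0916% of 27305 genes with a promoter. ERSE-II was found for 2 members (4.88%), against 0.0696% of genes, and TGACGTGG for 6 members (14.6%), against 0.927% of genes. The members were chosen as ER genes, many of which are known to be raised through such elements, so these shares are a description and not a test. A match is a description of the letters and not evidence that a factor binds there. In the stretches below the element is in capitals, sequences run 5′ to 3′ on the strand of the gene, and an element found on the opposite strand appears as its reverse complement. The 250 bases before the start site are given for HSP90B1, which holds ERSE on both strands, and for KDELR3, which had the largest difference between the diseases by its reported probe-set and holds TGACGTGG.
HSP90B1, chr12:103930160-103930409, plus strand: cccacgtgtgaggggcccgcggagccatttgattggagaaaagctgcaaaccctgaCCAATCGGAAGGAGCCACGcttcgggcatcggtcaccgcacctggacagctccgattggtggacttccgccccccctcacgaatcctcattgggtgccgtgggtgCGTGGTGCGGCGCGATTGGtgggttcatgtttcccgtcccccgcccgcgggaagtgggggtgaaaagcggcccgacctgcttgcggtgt
KDELR3, chr22:38467846-38468095, plus strand: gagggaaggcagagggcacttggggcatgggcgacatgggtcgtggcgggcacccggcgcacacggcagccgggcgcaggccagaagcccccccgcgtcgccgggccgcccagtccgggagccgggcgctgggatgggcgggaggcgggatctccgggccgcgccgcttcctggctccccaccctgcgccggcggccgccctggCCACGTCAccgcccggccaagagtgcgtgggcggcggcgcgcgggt
The other members with ERSE are shown with 20 bases on either side.
PDIA6, chr2:10812833-10812891, minus strand: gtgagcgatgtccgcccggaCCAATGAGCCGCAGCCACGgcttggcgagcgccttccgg
CALR, chr19:12938364-12938422, plus strand: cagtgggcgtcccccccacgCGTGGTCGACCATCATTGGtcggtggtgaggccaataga
CANX, chr5:179698758-179698816, plus strand: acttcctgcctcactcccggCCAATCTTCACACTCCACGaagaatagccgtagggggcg
CRELD2, chr22:49918534-49918592, plus strand: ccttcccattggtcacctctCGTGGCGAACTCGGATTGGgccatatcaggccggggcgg
ERSE-II was found in the promoters of HYOU1, which has it at 2 places, and SDF2L1, again shown with 20 bases on either side.
HYOU1, chr11:119057254-119057410, minus strand: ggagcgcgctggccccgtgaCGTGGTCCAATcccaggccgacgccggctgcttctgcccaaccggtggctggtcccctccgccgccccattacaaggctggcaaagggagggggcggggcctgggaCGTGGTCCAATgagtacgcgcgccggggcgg
SDF2L1, chr22:21642094-21642144, plus strand: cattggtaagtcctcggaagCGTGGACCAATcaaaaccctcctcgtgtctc
In the HYOU1 promoter the TGACGTGG match overlaps the ERSE-II match farther from the start site. No other matches among the members overlapped. The remaining genes with TGACGTGG were SSR3, SSR4, SEC62 and SRP19.

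All levels are deposited log2 expression values that the authors obtained by RMA, a background correction and quantile normalisation over arrays. Each is a mean over the cells of a culture, so that fewer expressing cells and less RNA per cell cannot be told apart. Array medians lay between 5.65 and 5.71. The labelled cell types were visible in their markers. Of 7 measured B-cell markers 6 were lower in MM lines, and of 8 plasma cell markers 6 were higher, while 0 of the T-cell, myeloid and stromal markers were called. The mean level of the B-cell list was 5.27 to 6.53 in MM lines and 9.58 to 11.13 in DLBCL lines, and that of the plasma cell list was 8.37 to 12.36 in MM lines and 6.83 to 10.23 in DLBCL lines. The 2 diseases thus also differed in markers of the differentiation stage, and the part of that stage in each result was not tested.

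To see how the ER machinery differed between the diseases, all 33297 probe-sets left after the choice per gene were fitted with limma, and p values were adjusted over all of them. Of the 44 members 27 were higher in MM lines at an adjusted p under 0.05, and 0 were lower. Over all tested probe-sets 5.49% were called higher and 5.4% lower. The members' median difference, MM minus DLBCL, was 0.93 on the log2 scale, against −0.02 over all tested probe-sets, and 40 of 44 members had a difference above 0. Those called included 8 of 10 chaperones and cochaperones, 6 of 9 translocon members, 4 of 5 oligosaccharyltransferase subunits, 3 of 5 signal peptidase subunits, 3 of 4 disulfide isomerases, both measured KDEL receptors and the SRP receptor subunit SRPRB. None of the 6 proteins of SRP itself and neither COPII member was called. Groups that did not overlap at all were rare: 0.0781% of tested probe-sets had every MM line above every DLBCL line, and SPCS1 was the member that did so.

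**Figure D1:**
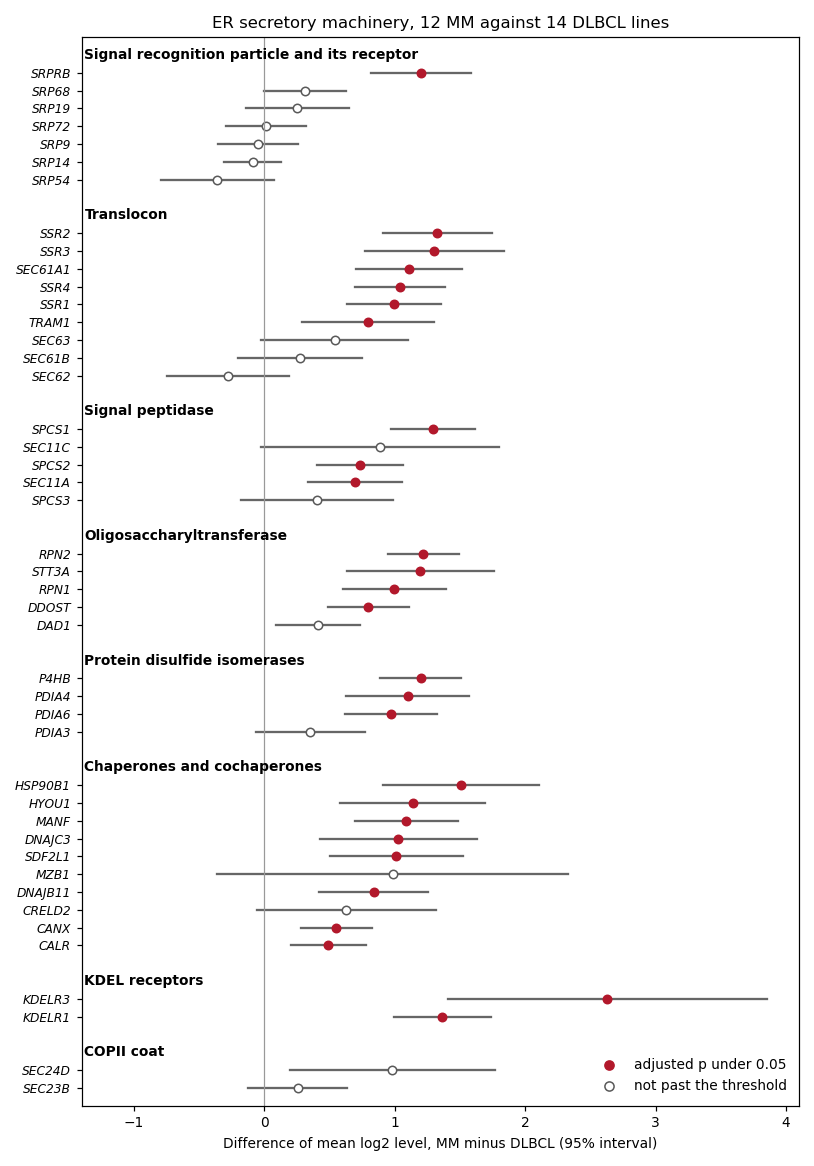
Difference in mean log2 level between 12 MM and 14 DLBCL lines for the 44 measured members, grouped by role, with 95% confidence intervals from limma. Filled points passed an adjusted p under 0.05, and all 27 lie to the right of 0, while the SRP proteins sit around 0. KDELR3 lies farthest out at 2.63, a difference of unknown exact size because all DLBCL lines and some MM lines lay below the array medians.

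SRP and its receptor were split. SRPRB, the membrane subunit that anchors the SRP receptor, ranged from 10.71 over a median of 11.17 to 11.67 in MM lines, and from 8.74 over 10.02 to 10.77 in DLBCL lines. The groups overlapped only at the edge, with 11 of 12 MM lines above every DLBCL line and KMS-12-PE the exception. The difference was 1.20 (SE 0.19, adjusted p = 9.69e-05 from limma). In contrast, the 6 SRP proteins had differences between −0.36 (SRP54, the subunit that binds the signal peptide) and 0.31 (SRP68). Their groups overlapped widely, and the other protein subunits SRP9, SRP14, SRP19 and SRP72 lay within these bounds. The 95% intervals were −0.79 to 0.07 for SRP54 and −0.01 to 0.62 for SRP68.

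In the translocon the subunits of the translocon-associated protein complex, SSR1 to SSR4, were all higher in MM lines. SSR2 ranged from 11.25 over a median of 12.72 to 13.22 in MM lines and from 10.20 over 11.16 to 12.25 in DLBCL lines, a difference of 1.33 (SE 0.20, adjusted p = 9.52e-05 from limma). NCI-H929 was highest and KMS-12-BM lowest among the MM lines, and 8 MM lines lay above every DLBCL line. SSR3 ranged from 11.002 over 12.11 to 13.40 in MM lines and from 9.57 over 10.73 to 11.83 in DLBCL lines (difference 1.30, SE 0.26, adjusted p = 0.00143), and SSR4 from 12.12 over 12.85 to 13.79 in MM lines and from 11.19 over 11.85 to 12.90 in DLBCL lines (difference 1.04, SE 0.17, adjusted p = 0.000154). RPMI-8226 was the highest line for both, and for both the lowest MM lines lay within the DLBCL range. SEC61A1, the pore of the channel, ranged from 10.15 over 11.12 to 11.42 in MM lines and from 8.79 over 9.89 to 10.96 in DLBCL lines, a difference of 1.11 (SE 0.20, adjusted p = 0.000455). Its lowest DLBCL line was DB, and 5 DLBCL lines lay above the lowest MM line.
SSR1 differed by 0.99 and TRAM1, which helps signal peptides into the channel, by 0.79 (adjusted p = 0.0367). TRAM1 was the member nearest the threshold, and it lost its call in 13 of the 26 fits that left out a line each. The remaining translocon members were not called. They were the small channel subunit SEC61B (0.27) and the pair that serves import after translation, SEC62 (−0.28) and SEC63 (0.54). SEC61B was highest in a DLBCL line, OCI-Ly3, at 13.77, and SEC62 in another, U2932, at 12.26.

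SPCS1, an accessory subunit of signal peptidase, separated the diseases completely. It ranged from 12.69 over a median of 13.04 to 13.62 in MM lines and from 10.83 over 11.84 to 12.39 in DLBCL lines, with a difference of 1.29 (SE 0.16, adjusted p = 4.42e-06 from limma). KMS-11 was the lowest MM line and HBL-1 the highest DLBCL line. SPCS2 (0.73, adjusted p = 0.00297) and the catalytic subunit SEC11A (0.69, adjusted p = 0.0107) were also called, with overlapping groups. For SPCS2 9 MM lines lay above every DLBCL line, while KMM-1, U-266 and KMS-11 fell within the DLBCL range. The other catalytic subunit SEC11C had a difference of 0.89 that was not called (adjusted p = 0.215), with SDs of 1.07 in MM lines and 1.24 in DLBCL lines. Its highest level of all was in the DLBCL line U2932 at 14.02, and its lowest was in KMS-12-PE at 9.16, whereas the sister line KMS-12-BM had 11.97. SPCS3, an accessory subunit, had a difference of 0.40 with an interval of −0.18 to 0.99.

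Oligosaccharyltransferase moves a preassembled sugar chain from dolichol to asparagines of the entering protein. RPN2, a subunit of the complex, ranged from 12.25 over a median of 12.71 to 13.14 in MM lines and from 10.80 over 11.47 to 12.30 in DLBCL lines. The difference of 1.22 (SE 0.13) had the smallest adjusted p among the members, 1.01e-06 from limma. Only the DLBCL line SU-DHL-8 reached above the lowest MM line, KMS-12-BM. STT3A, the catalytic subunit that works at the translocon, ranged from 9.33 over 11.15 to 11.64 in MM lines and from 8.36 over 9.87 to 10.48 in DLBCL lines (difference 1.19, SE 0.27, adjusted p = 0.00491). U-266 was the low MM line, and 9 MM lines lay above every DLBCL line. RPN1 differed by 0.997 (adjusted p = 0.000946) with an SD of 0.18 in MM lines and 0.65 in DLBCL lines, where DB was lowest at 8.84. DDOST, also a subunit, differed by 0.80, and the small subunit DAD1 by 0.41, which was not called (adjusted p = 0.091). As a role mean over its 5 members, oligosaccharyltransferase separated the diseases, with 11.51 to 12.32 in MM lines and 10.19 to 11.39 in DLBCL lines.

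P4HB, the founding protein disulfide isomerase, ranged from 11.20 over a median of 12.30 to 13.25 in MM lines and from 10.65 over 11.18 to 11.63 in DLBCL lines. All MM lines but KMS-12-BM lay above every DLBCL line, and the difference was 1.20 (SE 0.15, adjusted p = 7e-06 from limma). PDIA4 ranged from 9.59 over 10.91 to 11.71 in MM lines and from 8.77 over 9.78 to 10.70 in DLBCL lines, a difference of 1.10 (SE 0.23, adjusted p = 0.00218) with overlapping groups. PDIA6 differed by 0.97. PDIA3, which works on glycoproteins together with calnexin and calreticulin, had a difference of 0.35 (interval −0.06 to 0.77) and was not called. The PDIA5 probe-set that also lists a microRNA had a mean of 9.58 ± 0.94 (SD) in MM lines and 8.22 ± 0.87 in DLBCL lines, and is not counted among the members.

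Among the chaperones HSP90B1, the ER member of the HSP90 family (GRP94), had the largest difference. It ranged from 10.23 over a median of 11.33 to 12.46 in MM lines and from 8.14 over 10.03 to 10.94 in DLBCL lines (difference 1.51, SE 0.29, adjusted p = 0.00105 from limma), a fold of 2.84. KMS-12-BM was the highest line of all and DB the lowest, and 9 MM lines lay above every DLBCL line. HYOU1, a large HSP70-type chaperone, ranged from 10.13 over 11.33 to 11.76 in MM lines and from 8.62 over 10.07 to 11.49 in DLBCL lines (difference 1.14, SE 0.27, adjusted p = 0.00648). U2932 came close to the highest MM line, and 3 MM lines lay above it. MANF, a small secreted protein induced by ER stress, ranged from 10.03 over 11.12 to 11.63 in MM lines and from 9.12 over 10.02 to 10.79 in DLBCL lines (difference 1.09, SE 0.19, adjusted p = 0.000399). Here 10 MM lines lay above every DLBCL line.
Cochaperones of the HSP70 protein BiP were also higher in MM lines. DNAJC3 ranged from 8.31 over 9.96 to 10.95 in MM lines and from 7.42 over 8.55 to 9.72 in DLBCL lines (difference 1.03, SE 0.29, adjusted p = 0.0216), and SDF2L1, which works with DNAJB11, from 9.50 over 10.02 to 11.07 in MM lines and from 7.66 over 9.22 to 10.12 in DLBCL lines (difference 1.01, SE 0.25, adjusted p = 0.00786). Both overlapped between the diseases, with 7 MM lines above every DLBCL line for DNAJC3 and 5 for SDF2L1. DNAJB11 itself differed by 0.84. The lectin chaperones CANX and CALR, which hold glycoproteins until they are folded, had the smallest differences among the called members, 0.55 and 0.49.
MZB1, a B-cell and plasma cell cochaperone that assists IgM assembly, and CRELD2, a putative isomerase, were not called. MZB1 had a difference of 0.98 with the widest interval of the role (−0.36 to 2.33). In MM lines it ranged from 6.60 over 11.83 to 12.97 and in DLBCL lines from 6.96 over 10.40 to 11.61. Only U-266 (6.60), KMM-1 (6.73) and, among the DLBCL lines, OCI-Ly3 (6.96) lay below 9, while 8 MM lines lay above every DLBCL line.

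KDELR3, a receptor that retrieves luminal proteins, had the largest difference by its reported probe-set and split the MM lines. It ranged from 4.58 over a median of 8.13 to 10.46 in MM lines and from 4.35 over 4.63 to 5.07 in DLBCL lines. In KMS-11 (4.58), KMM-1 (4.58), OPM-2 (4.61) and U-266 (4.73) it lay inside the DLBCL range, MM1S had 5.49, and the other 7 MM lines had 7.74 or more. The difference of 2.63 (SE 0.59, adjusted p = 0.00431 from limma) averages over MM lines at the DLBCL level and MM lines far above it. All 14 DLBCL lines lay below the array medians, and so did KMS-11, KMM-1, OPM-2, U-266 and MM1S. The deposited values carry no detection call, so KDELR3 was not shown to be above background in any of these lines. For the 7 MM lines of 7.74 or more, the distance to the DLBCL lines can be read only as a lower bound. The exact size of the mean difference is not known. Its 2 other probe-sets, tested on their own, gave 1.60 and 0.51. KDELR1 was higher in MM lines in a more even way, from 10.85 over 11.74 to 12.21 in MM lines and from 9.61 over 10.27 to 11.39 in DLBCL lines (difference 1.37, SE 0.18, adjusted p = 1.44e-05). DB was the highest DLBCL line and the only one above the lowest MM line.
The COPII members were not called. SEC24D, which selects cargo for the vesicle, ranged from 6.39 over 8.61 to 10.38 in MM lines and from 6.39 over 7.17 to 8.82 in DLBCL lines, and its difference of 0.98 (SE 0.38) had an adjusted p = 0.101 from limma. MOLP-8 was highest and KMS-12-BM lowest among the MM lines, and without KMS-12-BM the difference was 1.16 and passed (adjusted p = 0.0383). SEC23B, the partner of SEC24 in the inner coat, had a difference of 0.25.

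**Figure D2:**
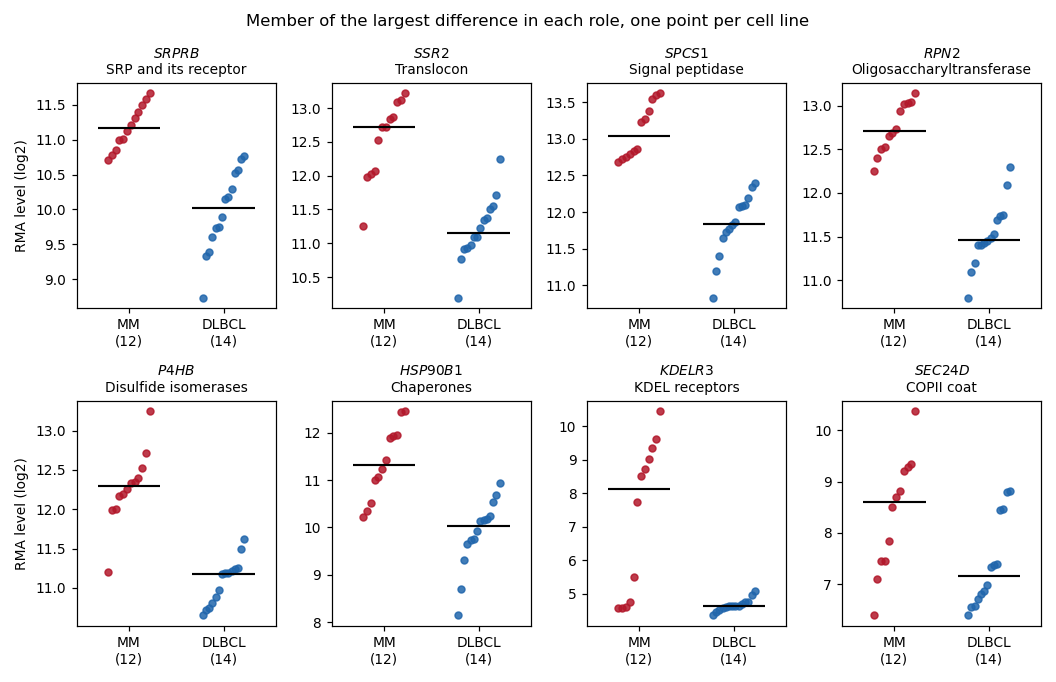
Log2 level per cell line, MM left and DLBCL right, for the member of the largest difference in each of the 8 roles, with lines at the medians. SPCS1 has no overlap, KDELR3 lies near 5 in all 14 DLBCL lines and spreads from 4.58 to 10.46 in the 12 MM lines, and SEC24D overlaps.

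The promoter elements were set beside the differences as a description. The 7 members with ERSE or ERSE-II had differences between 0.49 (CALR) and 1.51 (HSP90B1) with a median of 0.97, and 6 of them were called. The 32 measured members with a promoter and neither element had a median of 0.86, and 18 were called. Their largest difference was 2.63 (KDELR3). Over all tested probe-sets 5.49% were called higher. With only 7 members in the first set, the sets were not tested against each other. Beyond KDELR3 and HYOU1, the members with TGACGTGG ranged from −0.28 (SEC62) to 1.30 (SSR3).

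Tested each on its own among all 54613 probe-sets, 94 of the members' 106 single-gene probe-sets had a difference above 0 (88.7%, against 44.3% of all probe-sets). Of the 106, 60 were called higher and 0 lower, against 5.64% of all probe-sets called higher and 5.87% called lower in that fit. A probe-set of SEC23B other than the reported one differed by 0.74 (adjusted p = 0.00952 from limma), against 0.25 for the reported one. The choice of the probe-set decided the call for SSR1, SPCS2 and CANX, which were not called when the probe-set that varied most among the DLBCL lines was taken instead (0.47, 0.15 and 0.43).

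The order of the lines was read from the mean of the 44 members, which is a description and was given no test. It was 11.33 ± 0.33 (SD, n = 12) in MM lines and 10.54 ± 0.26 (SD, n = 14) in DLBCL lines, a difference of 0.80 with a pooled SD of 0.29. The mean of all tested probe-sets was 6.21 in both diseases, which the quantile normalisation over arrays largely sets in advance. MOLP-8 led the MM lines at 11.83, before NCI-H929 at 11.65, LP-1 and RPMI-8226 at 11.58, MM1S at 11.54 and AMO-1 at 11.49. Next came OPM-2 at 11.29, KMS-12-PE at 11.22, KMS-12-BM at 11.12 and KMS-11 at 11.10. KMM-1 at 10.85 and U-266 at 10.75 closed the MM lines. In the DLBCL lines U2932 (10.95), HBL-1 (10.87) and OCI-Ly7 (10.82) were highest and reached above U-266. The lowest DLBCL lines were SU-DHL-8 (10.37), NU-DUL-1 (10.31), DB (10.13) and SU-DHL-4 (10.08), and MC-116 stood in the middle at 10.52. So 3 DLBCL lines and 2 MM lines lay in the range that both diseases hold. With 1 array per line, the error of a single line's mean is unknown, so neighbours in this order cannot be told apart. The mean was not scaled per gene, so members that spread widely weigh most in it. Among MM lines these were KDELR3 (SD 2.30) and MZB1 (SD 2.20). KDELR3 was not shown to be above background in OPM-2, KMS-11, KMM-1, U-266, MM1S and all DLBCL lines. How far these members set the order was not tested.
Lines at the ends of the order recurred in many roles, each of which is part of the mean that sets the order. MOLP-8 ranked first among MM lines in 5 of 8 roles, KMM-1 was among the last 3 in 7 roles and U-266 in 5. AMO-1 ranked first for the chaperones and last for SRP and its receptor. For the disulfide isomerases NCI-H929 had rank 9 and KMS-11 rank 3 among MM lines. In the DLBCL lines SU-DHL-4 was last in 5 roles, and SU-DHL-4 and DB were among the last 3 in 7 roles each. The exception for both was the KDEL receptors, where DB had rank 1 and SU-DHL-4 rank 3. HBL-1, among the highest DLBCL lines by the mean, ranked last there. KDELR3 was not shown to be above background in the DLBCL lines. These ranks therefore rest mainly on KDELR1 (DB 11.39, SU-DHL-4 10.77, HBL-1 9.61). In MM lines with 20% serum the members' mean had a median of 11.49 (5 lines), against 11.29 with 10% (7 lines), and in DLBCL lines the medians were 10.50 with 20% (3 lines, OCI-Ly3 with human serum among them), 10.42 with 15% (2 lines) and 10.62 with 10% (9 lines). With serum as a covariate 27 members were again called.

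**Figure D3:**
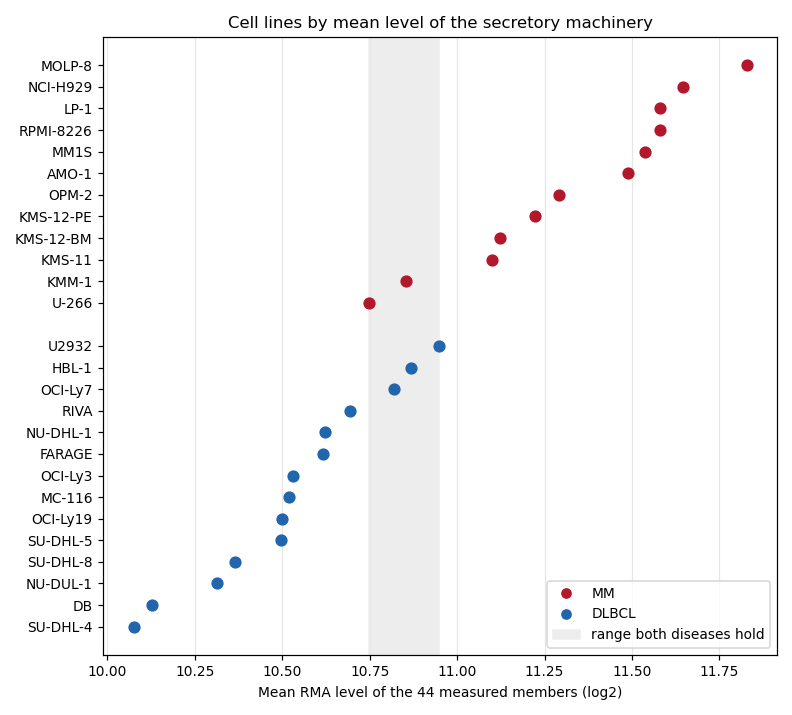
Mean log2 level of the 44 measured members per cell line, MM lines above and DLBCL lines below, each sorted. MM lines reach from 10.75 to 11.83 and DLBCL lines from 10.08 to 10.95, and the grey band from 10.75 to 10.95 holds 2 MM and 3 DLBCL lines.

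Within each disease the members tended to vary together. The mean correlation over 946 pairs of members was 0.21 across 12 MM lines and 0.19 across 14 DLBCL lines, and 74.4% of pairs were positive in MM lines and 70.9% in DLBCL lines. Over all tested probe-sets the mean pairwise correlation was 0.013 in MM lines and 0.0091 in DLBCL lines. All of these pairs share the same arrays. The members closest to the mean of the other members were SEC63, HYOU1, SPCS2 and MANF in MM lines (r from 0.83 to 0.85) and SEC61A1, PDIA6, DNAJB11 and SRP19 in DLBCL lines (r from 0.80 to 0.91). Some members went their own way. KDELR1 ran against the rest, with r = −0.24 in MM lines and −0.75 in DLBCL lines, and SSR2 had r = 0.75 in MM lines and −0.49 in DLBCL lines.
The sister lines were close but not alike. Their mean absolute difference over the 44 members was 0.46, against a median of 0.66 over the other 65 pairs of MM lines, and 5 of those pairs were closer. Only SEC11C (2.81 higher in KMS-12-BM), SRP68 (1.16 higher in KMS-12-PE) and HSP90B1 (1.04 higher in KMS-12-BM) differed by 1 or more.

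**Figure D4:**
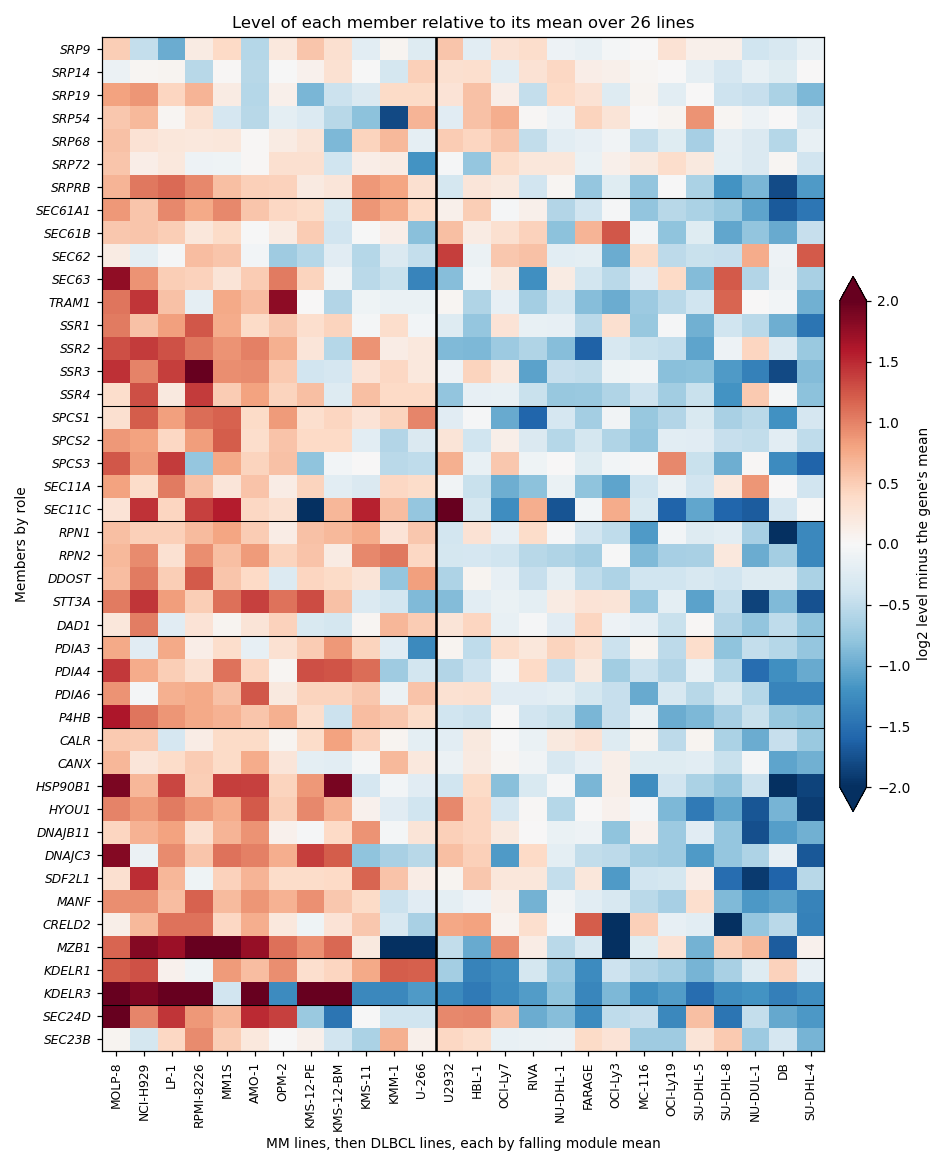
Log2 level of each member minus its mean over 26 lines, members by role down the page and cell lines across, MM lines left and DLBCL lines right of the black line, each by falling module mean. The colour scale stops at −2 and 2. Most rows are red on the left, while SRP9, SRP14, SRP54 and SEC62 show no such split and MZB1 is low in KMM-1 and U-266.

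Transcription factors of the secretory programme were set beside the members' mean as a description. Only their RNA levels were read, and the activity of the factors was not measured. ATF6, which switches on ER chaperones, ranged from 9.34 to 10.37 in MM lines and from 8.18 to 9.12 in DLBCL lines without overlap (difference 1.03, adjusted p = 7.65e-07 from limma). Its correlation with the members' mean was r = 0.64 (rho 0.74) across MM lines and 0.45 (rho 0.38) across DLBCL lines. CREB3L2, a relative of ATF6 that raises a COPII gene in mouse cartilage cells, had a difference of 2.84 (adjusted p = 0.00811). Its r was the highest of the 6 factors, 0.74 (rho 0.78) across 12 MM lines and 0.65 (rho 0.57) across 14 DLBCL lines. CREB3L2 lay below the array medians in DB (3.64), SU-DHL-8 (3.94), SU-DHL-4 (4.48) and NU-DHL-1 (5.39), so the exact size of its difference is not known. DB and SU-DHL-4 also had the lowest members' means, and r without them was not computed. XBP1, the driver of ER expansion in plasma cells, differed by 2.59 (adjusted p = 0.00269). It had r = 0.27 (rho 0.48) in MM lines, where AMO-1 combined the lowest XBP1 level of the group (9.58) with the sixth rank of the members' mean, and 0.46 (rho 0.38) in DLBCL lines. PRDM1 and IRF4, which drive plasma cell differentiation, were higher by 1.21 and 2.61. IRF4 lay below the array medians in DB (5.44). PRDM1 had r = 0.38 in MM lines and −0.15 in DLBCL lines, and IRF4 had 0.24 in MM lines and 0.58 in DLBCL lines. These differences depended on the probe-set. The other probe-sets gave 2.13 and 4.81 for PRDM1, 2.08 and 0.35 for IRF4, 1.15 and 0.04 for CREB3L2, and 0.06 for XBP1, while those of ATF6 gave 1.24 to 1.35. ATF4, a factor of the stress response that is regulated through its translation, had a difference of −0.17 that was not called, with r = 0.37 (rho 0.45) in MM lines and −0.58 (rho −0.64) in DLBCL lines.

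Other genes of the pathway, from lists that hold no member, showed the same direction. The lists were chosen with earlier results of these data known. Over all tested probe-sets 5.49% were called higher and 5.4% lower, with a median difference of −0.02. Of 29 measured genes of translocation and N-glycosylation 17 were higher in MM lines and 0 lower (median difference 0.71). RRBP1, the ribosome-binding protein of the rough ER (2.47), TRAM2, a relative of TRAM1 (2.42), KRTCAP2, a subunit of oligosaccharyltransferase (1.52), and HM13, the signal peptide peptidase (1.27), had the largest differences among those called. Of 26 folding and oxidation genes 14 were higher and 0 lower (median 0.76), led by the BiP cochaperones DNAJC1 (3.19) and DNAJB9 (1.95), the thioredoxin family member TXNDC11 (2.05) and SELENOS, which acts in ER-associated degradation (1.65). HSPA5, which encodes BiP, had a mean of 12.92 ± 0.36 (SD) in MM lines and 11.85 ± 0.80 in DLBCL lines (difference 1.07, adjusted p = 0.00442 from limma). In ER to Golgi transport 12 of 34 genes were higher and 0 lower (median 0.43). Among those called, the largest differences were those of SURF4, a cargo receptor (1.07), PREB, which activates the COPII GTPase (0.97), and the cargo carriers TMED9 (0.87) and TMED10 (0.83).

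The relation to drug response was examined within each disease, with the slope of each member's log2 level per 100 units of AUC0 fitted by limma. For none of the 3 drugs was a member called at an adjusted p under 0.05 in either disease, and over all tested probe-sets 0% were called in each of the 6 fits. At an unadjusted p under 0.05 the members counted 2 for C in MM lines and 1 in DLBCL lines (background 3.51% and 4.71% of all tested probe-sets), 6 for H in MM lines and 3 in DLBCL lines (background 3.9% and 5.47%) and 2 for O in MM lines and 1 in DLBCL lines (background 4.83% and 4.29%). These shares rest on 44 members that vary together and were given no test.
For H in MM lines 42 of 44 members had a negative slope, with a median of −0.46, while 58.4% of all tested probe-sets had a positive one. SPCS2 had the smallest p there. Its level was 13.25 in MM1S, the most sensitive line (AUC0 of 227), 12.91 in MOLP-8 (253), 11.83 in KMS-11, the most resistant (356), and 11.45 in KMM-1 (346). Between these ends the fall was not steady. The level was 12.40 in AMO-1 (269), 12.84 in NCI-H929 (291), 12.88 in RPMI-8226 (297) and 12.46 in LP-1 (316). It was 11.76 in U-266 (325), 12.62 in OPM-2 (329), and 12.44 in both KMS-12-BM (331) and KMS-12-PE (340). The slope was −1.001 (SE 0.26, adjusted p = 0.999 from limma). The other 5 were SEC62 (−0.82), SSR1 (−0.56), SSR3 (−1.06), HSP90B1 (−1.15) and SEC24D (−1.75). In DLBCL lines the slopes for H were spread around 0, with 26 positive and 18 negative and a median of 0.04 (50.4% of all tested probe-sets were positive). P4HB had the smallest p, with a slope of 0.38 (SE 0.12, adjusted p = 0.881), and ranged from 10.65 in OCI-Ly19, the most sensitive line, to 11.63 in OCI-Ly7.
For C 9 of 44 slopes were positive in MM lines and 18 in DLBCL lines, against 51.7% of all tested probe-sets in MM lines and 50.2% in DLBCL lines. SEC61B in MM lines (slope −0.56, SE 0.23, adjusted p = 1.0 from limma) and SEC11C in DLBCL lines (1.46, SE 0.50, adjusted p = 0.988) had the smallest p, and U2932, with the highest SEC11C level, was the line next to the most resistant. For O 33 of 44 slopes were positive in MM lines and 16 in DLBCL lines, against 42.9% of all tested probe-sets in MM lines and 53.4% in DLBCL lines. SRPRB in MM lines (0.72, SE 0.27, adjusted p = 0.977) and TRAM1 in DLBCL lines (1.33, SE 0.49, adjusted p = 0.993) had the smallest p. SRPRB was highest in LP-1, the most resistant MM line to O, at 11.67.

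Whether the slopes differed between the diseases was tested with an interaction term. No member was called for any drug, and 0% of all tested probe-sets were called for each. At an unadjusted p under 0.05 the members counted 1 for C (background 4.47%), 7 for H (5.08%) and 2 for O (4.12%). For H the 7 were SPCS2, SEC62, P4HB, SEC24D, SSR3, DNAJC3 and SEC11C, all with a lower slope in MM than in DLBCL lines. SEC62 had slopes of −0.82 in MM lines and 0.80 in DLBCL lines, and SPCS2 had the smallest p with a difference of slopes of −1.15 (SE 0.29, adjusted p = 0.779 from limma).

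The members' mean was set against AUC0 in the same way, over 12 to 14 lines per disease and without a test. For H in MM lines r was −0.71 (rho −0.74), and −0.69 without MM1S and MOLP-8, the lines farthest from the median AUC0. The 6 MM lines of the highest mean, MOLP-8, NCI-H929, LP-1, RPMI-8226, MM1S and AMO-1, were the 6 most sensitive to H, with AUC0 from 227 to 316, and the other 6 had 325 to 356. This cut was chosen after the values were seen and is not a sharp one. The AUC0 intervals given for LP-1 and U-266, the lines on either side of it, overlapped. Both sister lines fell among the other 6. Leaving out each line in turn gave r between −0.78 and −0.64. In DLBCL lines r for H was 0.21 (rho 0.26). For C r was −0.33 (rho −0.24) in MM lines, and −0.48 without AMO-1 and MM1S, and 0.01 (rho 0.08) in DLBCL lines. For O r was 0.43 (rho 0.43) in MM lines, but 0.17 without LP-1 and MOLP-8. In DLBCL lines it was −0.21 (rho −0.16) for O and turned to 0.44 without DB and SU-DHL-8, and the line DB alone took it to 0.11 when left out. For C in DLBCL lines r was 0.41 without DB. These are 6 values from the same arrays, and no p is given for a mean over chosen members.

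**Figure D5:**
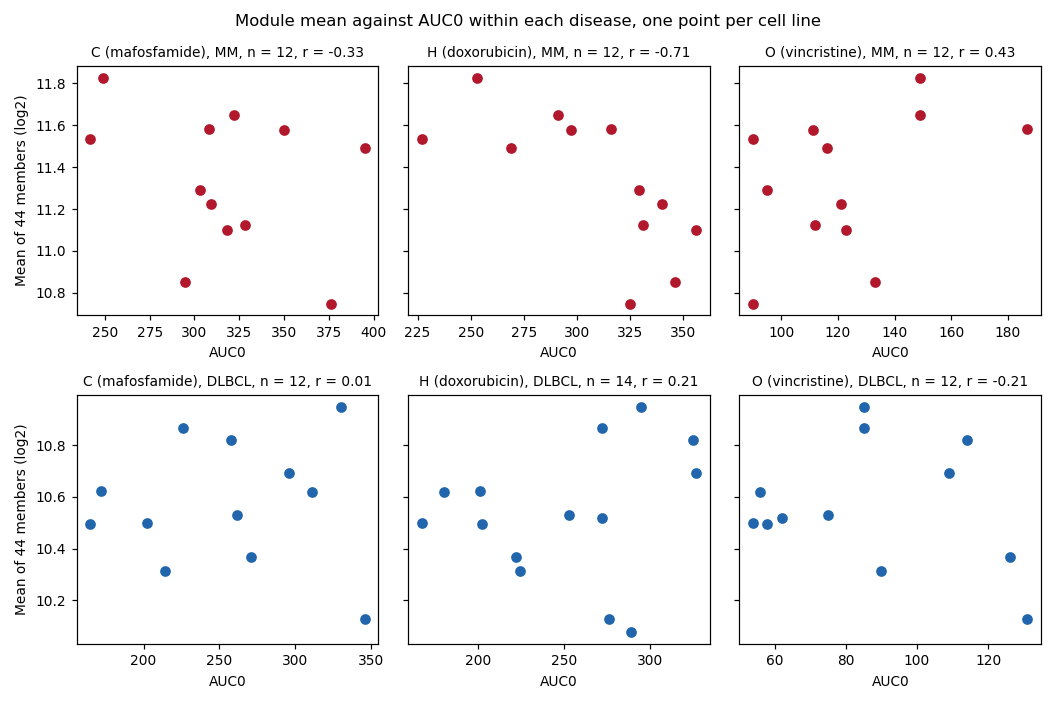
Mean log2 level of the 44 measured members against AUC0 for C, H and O, MM lines above and DLBCL lines below, with a point per cell line. The points fall from upper left to lower right for H in MM lines (r = −0.71), and the other 5 panels have r between −0.33 and 0.43.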

How the data were processed

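The deposited values are log2 intensities that the authors made from the arrays with RMA in affy and R 3.0.1, per the labels' processing notes. Of 54675 probe-sets 62 controls were left out. Where the platform annotation gave a single gene, the probe-set of the highest mean over the 26 lines stood for it, and probe-sets with several genes or none were kept, which left 33297. Levels of different probe-sets were compared to choose 1 per gene. They were averaged without scaling in the members' mean, the role means and the means of the marker lists. Otherwise the level of a gene was not set against that of another. AUC0 came from the labels. It was given for all MM lines, and for 12 DLBCL lines for C, 14 for H and 12 for O. MM minus DLBCL was fitted with limma 3.58.1 in R 4.3.3 (lmFit and eBayes, 2-sided, Benjamini-Hochberg over all tested probe-sets, called at an adjusted p under 0.05). Slopes on AUC0, per 100 units, were fitted within each disease, and their difference as an interaction term. The code was tested on simulated data. The labels name no batch. Each line has 1 array, so the number of arrays limits the precision. Members and gene lists were chosen with earlier results of these data known. Full values are given for the member of the largest difference per role and for called members that differed by 1 or more, and for AUC0 for the member of the smallest p per drug and disease. Up to 4 called genes of the largest difference are named per other list. Other line extremes, and the members past an unadjusted p, were named after their values were seen. Alternatives were other choices of probe-set, a filter on dim probe-sets (mean log2 under 6), array centring, a robust prior with trend, serum as a covariate, ranks of AUC0, and leaving out lines. Promoter sequences were searched with Python 3.11.15.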

Additional observations from a re-analysis of the deposited data

How the results depend on the processing

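The count of members called higher in MM lines was 24 to 28 over the alternatives, against 27, and 26 to 29 when each line was left out in turn, with 0 called lower throughout. The highest counts came without KMS-12-BM (29, SRP68 and SEC24D added) and with probe-sets that list a microRNA beside the gene (28, PDIA5 added), an alternative chosen after seeing the data. The difference of the members' mean stayed between 0.75 and 0.85. With the probe-set that varied most among the DLBCL lines the call was lost for SSR1 (0.47, adjusted p = 0.300 from limma), SPCS2 (0.15, adjusted p = 0.716) and CANX (0.43, adjusted p = 0.426). It was also lost for CANX with the mean of its probe-sets (0.46, adjusted p = 0.0542) and for TRAM1 without MC-116 and AMO-1 (0.75, adjusted p = 0.0750). The ER to Golgi list had 8 to 16 genes called higher over all alternatives, against 12. No member was called on AUC0 in any alternative run. The correlation of the members' mean with AUC0 for C in DLBCL lines, 0.01, turned to −0.0099 with ranks of AUC0 and −0.018 with the most variable probe-set. Leaving out each line in turn gave −0.24 (without U2932) to 0.41 (without DB), with negative values also without FARAGE, NU-DUL-1, OCI-Ly19, RIVA and SU-DHL-5. For O in DLBCL lines the range was −0.35 to 0.11 (without DB). The cause of these changes was not tested. For H in MM lines it was −0.78 to −0.64. No paired analysis was possible because each line has 1 array and belongs to 1 disease.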
